A study of Rattus norvegicus with 35 samples.

Results

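The genes described here encode the proteins of the light response of cone photoreceptors: the 2 cone opsins Opn1sw and Opn1mw, the 3 subunits of cone transducin Gnat2, Gnb3 and Gngt2, the phosphodiesterase subunits Pde6c and Pde6h, the channel subunit Cnga3 and the cone arrestin Arr3. They were chosen by gene symbol, and for each gene the probe set (a group of short probes for 1 transcript) with the highest mean over all arrays was used. Of the 9 genes, 8 were measured, among 14217 genes with a symbol and 31042 probe sets tested. No probe set under the symbol Pde6c was used here. The values come from retinas of adult female Sprague-Dawley rats in which the left optic nerve was crushed behind the eye (intraorbital nerve crush, IONC) or cut (intraorbital nerve transection, IONT), and from naïve rats that had no surgery. Each IONC group had 3 arrays and covered times of 12, 24 and 48 h and 3 and 7 d. IONT had 3 arrays for each of the times 12 h, 48 h and 7 d and 2 arrays for each of 24 h, 3 d and 15 d. With 5 naïve arrays this gave 35 arrays in 12 groups. Each array held pooled RNA of 4 left retinas from different animals, so that the spread described here is between pools and not between single rats.

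Cones detect colour and bright light. An opsin that absorbs light activates transducin, transducin relieves the block that an inhibitory subunit puts on phosphodiesterase 6, the enzyme breaks down cyclic GMP, and the cyclic nucleotide-gated channel closes. Arrestin then binds the phosphorylated opsin and ends the signal. Rods run the same cascade with a largely separate set of genes and far outnumber cones in the rat retina. Neither lesion cuts an axon of a cone: the optic nerve holds the axons of the retinal ganglion cells, which receive the cone signal through bipolar cells.

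The opsins decide which light a cone detects. Of the genes measured, only they differed between the lesions beyond the limit set below, so their upstream regions are shown here. The 250 bases before the start of each gene are from RefSeq (GRCr8), written 5′ to 3′ in the direction of the gene. The Opn1sw region is chr4:58945826-58946075 on the minus strand and the Opn1mw region is chrX:157056105-157056354 on the plus strand. Capitals mark matches to TAATCC, the core letters bound by the photoreceptor factor CRX, or to AGGTCA, the half-site letters of many nuclear receptors. Both strands were searched and the motifs did not overlap.
Opn1sw: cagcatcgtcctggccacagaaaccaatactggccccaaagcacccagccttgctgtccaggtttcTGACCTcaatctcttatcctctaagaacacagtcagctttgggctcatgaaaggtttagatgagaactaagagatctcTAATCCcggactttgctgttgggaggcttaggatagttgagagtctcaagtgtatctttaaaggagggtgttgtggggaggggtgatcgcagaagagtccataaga
Opn1mw: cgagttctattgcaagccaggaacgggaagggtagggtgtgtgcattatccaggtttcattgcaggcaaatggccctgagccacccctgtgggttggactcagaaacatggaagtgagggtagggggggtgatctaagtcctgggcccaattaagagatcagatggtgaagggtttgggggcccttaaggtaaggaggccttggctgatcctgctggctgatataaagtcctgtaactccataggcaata
Upstream of Opn1sw, TAATCC began 106 bases before the start of the gene, and AGGTCA was present on the opposite strand, as TGACCT, 184 bases before it. In the Opn1mw window neither set of letters was found on either strand. Of 33469 upstream regions of the same length, 6.34% held TAATCC and 14.1% held AGGTCA, so that a match is common and marks no known site. Regions of 5 of the 9 genes were in the table used (Opn1sw, Opn1mw, Arr3, Pde6h and Cnga3), and those of Arr3, Pde6h and Cnga3 held neither motif.

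All values are GCRMA signals on the log2 scale, so that a difference of 1 is a factor of 2. Arrays had closely matching medians (4.27 to 4.6) but formed 2 sets that the labels do not name. The β-actin control had a 3′ minus 5′ difference of 2.61 to 3.65 on 8 arrays (naïve replicates 4 and 5 and IONT 24 h, 3 d and 15 d) and of 1.53 to 1.93 on the other 27, and the origin of this split was not tested. IONT at 24 h, 3 d and 15 d was therefore compared with naïve replicates 4 and 5, and all other groups with all 5 naïve arrays. IONC 12 h replicate 2 stood apart from the rest: its median correlation with the other arrays was 0.871, against 0.962 to 0.992 for every other array. The standard deviation of its log2 signals was 2.302, against 2.886 or more on every other array. A difference was called when limma gave a Benjamini-Hochberg adjusted p under 0.01 over all probe sets, its B value (log odds) was positive and the fold change reached 1.2. The lesions themselves were visible in the tissue: 7 of 8 retinal ganglion cell markers were called lower at 7 d after IONC, at 7 d after IONT and at 15 d after IONT.

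Across the time course the cone genes were called in 6 of 40 gene and time combinations after IONC (3 higher, all of them Gnb3, and 3 lower) and in 6 of 48 after IONT (1 higher, Gnb3, and 5 lower). Of the 8 lower calls, 6 lay at 12 h: Opn1sw, Gnat2 and Gngt2 were called lower at that time after both lesions, and Opn1sw and Gnat2 also at 48 h after IONT. At 7 d no cone gene was called after either lesion. After IONC, 4 of 8 genes were called at 12 h, 1 at 24 h and 1 at 48 h, against 5.65%, 1.15% and 1.60% of all probe sets, and none at 3 d or 7 d, against 0.535% and 0.741%. After IONT, 3 of 8 were called at 12 h and 3 at 48 h, against 1.30% and 2.62% of all probe sets. None was called after IONT at 24 h, 3 d, 7 d or 15 d, against 0.831%, 0.954%, 1.46% and 1.87%. The median log2 change of the 8 genes was -0.93 at 12 h after IONC and -0.49 at 12 h after IONT, where the medians of all probe sets were 0.07 and 0.01. In pooled whole retina, fewer cones and less RNA per cone cannot be told apart in any of these values.

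**Figure D1:**
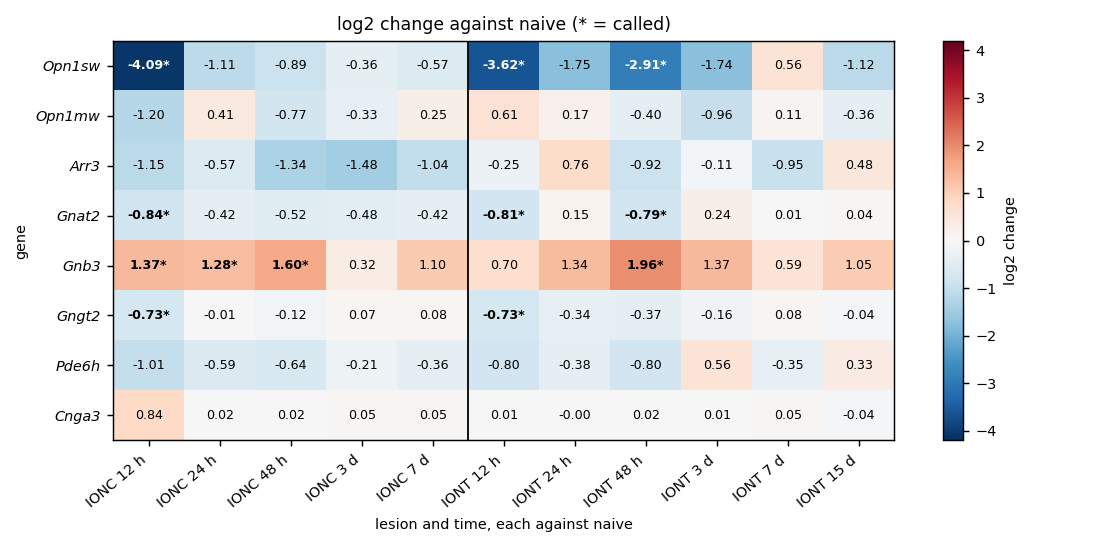
Log2 change of each cone phototransduction gene (rows) in each lesion and time group (columns) against naïve retinas, with called changes in bold and starred. Blue is lower and red is higher than naïve: Opn1sw has the deepest values, -4.09 at IONC 12 h and -3.62 at IONT 12 h, and Gnb3 is the only row with called changes above 0.

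Opn1sw, the short-wavelength opsin, had the largest change of the 8 genes. At 12 h it had log2 signals of 4.33, 3.93 and 5.96 in IONC retinas and 4.86, 5.18 and 5.60 in IONT retinas, against 9.39, 9.04, 9.21, 8.32 and 8.19 in naïve retinas. Every injured array at this time lay more than 2 log2 units below the lowest naïve array. Opn1sw fell by 4.09 after IONC (SE 0.33, 17.0-fold, adjusted p = 7.24e-09) and by 3.62 after IONT (SE 0.33, 12.3-fold, adjusted p = 8.01e-08). Without IONC 12 h replicate 2 the IONC change was -3.69 (adjusted p = 1.61e-07).

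At 48 h the level of Opn1sw differed between the lesions. At 24 h it had 8.05, 7.22 and 7.87 in IONC retinas and 6.58 and 6.44 in IONT retinas. These lesion groups lay on different array sets, and with each set against its own naïve arrays IONC minus IONT was 0.25 at 24 h (95% confidence interval -0.82 to 1.31, adjusted p = 0.999). At 48 h it had 7.82, 7.96 and 8.03 in IONC retinas and 6.17, 5.84 and 5.76 in IONT retinas. The 3 IONC arrays at 48 h lay below all 5 naïve arrays, and below the naïve arrays of their own set (9.04 to 9.39) by over 1 log2 unit, and the 3 IONT arrays were lower still. Against naïve, the IONT value at 48 h was called (-2.91, SE 0.33, adjusted p = 2.00e-06) and the IONC value was not (-0.89, SE 0.33, adjusted p = 0.139). With array set as a term the IONC value was -1.28 (adjusted p = 0.0295, not called), and it was called when IONC 12 h replicate 2 was also left out (adjusted p = 0.00495) and with array weights (-1.21, adjusted p = 0.000257). The difference itself, IONC minus IONT at 48 h, was 2.01 (SE 0.36, 95% confidence interval 1.26 to 2.76, adjusted p = 0.00965), or 4.04-fold higher in IONC, with every IONC array above every IONT array. This adjusted p lay just inside the limit, and the call held in 17 of 50 alternative analyses, while the difference stayed between 1.93 and 2.14.

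At 3 d Opn1sw had 8.35, 8.65 and 8.40 in IONC retinas, below the naïve arrays of their set (9.04 to 9.39), and 6.23 and 6.80 in IONT retinas, below the naïve arrays of theirs (8.32 and 8.19). IONC minus IONT at 3 d, with each set against its own naïve arrays, was 1.00 and was not called (adjusted p = 0.761). The IONT changes at 24 h (-1.75, SE 0.40, adjusted p = 0.0185) and at 3 d (-1.74, SE 0.40, adjusted p = 0.0176) missed the limit of 0.01. Without IONC 12 h replicate 2 both were called (adjusted p = 0.00353 and 0.00317). Calls over all probe sets then also rose, from 258 to 795 at 24 h and from 296 to 965 at 3 d. At 7 d Opn1sw had 7.87, 8.48 and 8.45 in IONC retinas, below the naïve arrays of their set (9.04 to 9.39). Against all 5 naïve arrays the IONC change was -0.57 and not called (limma adjusted p = 0.51). With array weights it was called (-0.84, adjusted p = 0.000479). In IONT retinas Opn1sw had 9.16, 9.59 and 9.42 at 7 d, which overlapped the upper end of the naïve range (0.56, adjusted p = 0.398). At 15 d after IONT it had 7.12 and 7.13, against 8.32 and 8.19 in naïve replicates 4 and 5 (-1.13, adjusted p = 0.149). The 7 d level was 4.18 above the 12 h level after IONT (SE 0.36, adjusted p = 6.68e-08) and 3.52 above it after IONC (SE 0.36, adjusted p = 2.84e-06).

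Opn1mw, the middle-wavelength opsin, lay below naïve at 12 h after IONC only, whereas Opn1sw did so after both lesions. At 12 h it had 6.81, 5.83 and 7.09 in IONC retinas and 8.57, 8.47 and 8.11 in IONT retinas, against 7.70, 7.92, 7.83, 7.71 and 7.74 in naïve retinas. The naïve arrays were tightly grouped, with every IONC array below them and every IONT array above them. Neither change against naïve was called: it was -1.20 after IONC (SE 0.31, adjusted p = 0.00918, with a B value of -0.66) and 0.61 after IONT (SE 0.31, adjusted p = 0.428). The difference between the lesions was called, at -1.81 (SE 0.35, 95% confidence interval -2.52 to -1.10, adjusted p = 0.0042), or 3.50-fold lower in IONC. Without IONC 12 h replicate 2 it was -1.44 and no longer called (adjusted p = 0.0409), and the call was also lost without any one of the 3 IONT 12 h arrays.

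At later times Opn1mw gave no call. It had 8.42, 7.92 and 8.22 at 24 h, 6.06, 7.55 and 7.41 at 48 h, and 7.13, 7.65 and 7.55 at 3 d in IONC retinas. In IONT retinas it had 7.63 and 8.16 at 24 h, 7.80, 7.09 and 7.24 at 48 h, and 6.54 and 7.00 at 3 d. The 3 d IONT arrays were the lowest of that lesion (-0.96, SE 0.43, adjusted p = 0.406). At 7 d, values of 7.50, 8.02 and 8.59 after IONC and 7.40, 8.27 and 8.01 after IONT straddled the naïve range.

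**Figure D2:**
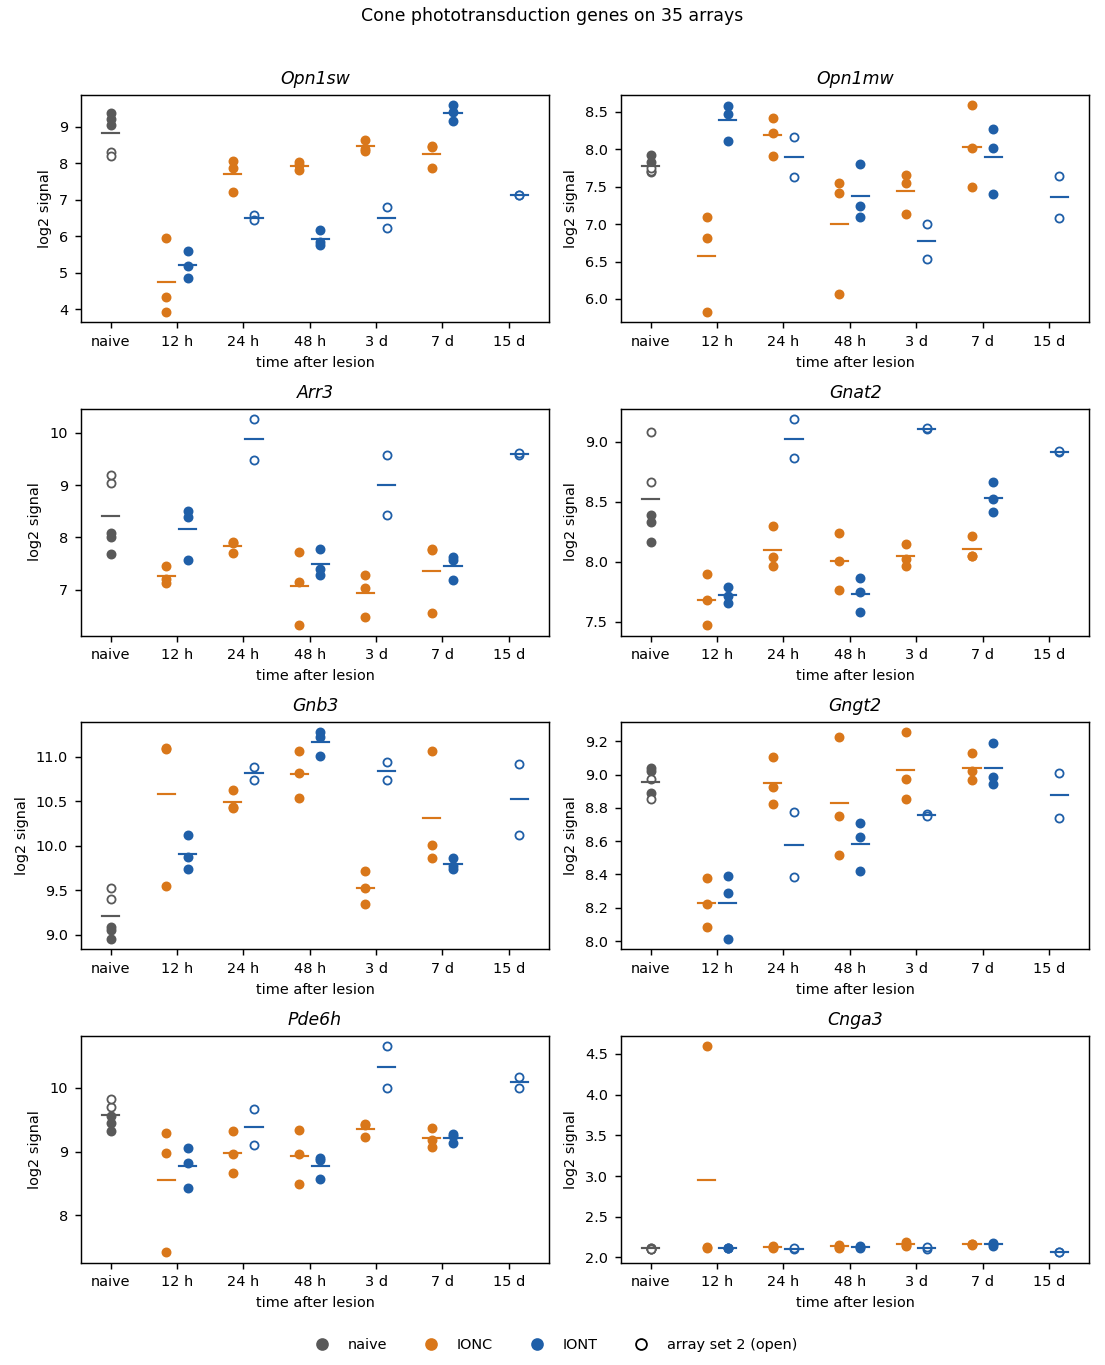
Log2 signal of the 8 measured cone genes on each of the 35 arrays, by time after the lesion, with naïve retinas at the left and a bar at each group mean. Open points are the 8 arrays of the set with the larger β-actin difference. Opn1sw is low in both lesions at 12 h and lower in IONT than in IONC at 48 h, Gnb3 is above naïve at most times, and Cnga3 lies at its floor on all arrays but 1.

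The cone transducin α subunit Gnat2, which carries the signal from opsin to phosphodiesterase, was called lower at 12 h after both lesions. It had 7.47, 7.68 and 7.89 in IONC retinas and 7.72, 7.66 and 7.79 in IONT retinas, against 8.39, 8.33, 8.16, 8.67 and 9.08 in naïve retinas. No injured array at 12 h reached the lowest naïve array. The change was -0.84 after IONC (SE 0.15, adjusted p = 0.000349) and -0.81 after IONT (SE 0.15, adjusted p = 0.00146). Over 50 alternatives it ran from -0.95 to -0.368 after IONC and from -0.897 to -0.575 after IONT. Cyclic loess and a fit of each pair of groups alone removed both calls, and array weights removed the IONC call (-0.424, limma adjusted p = 0.0608). At 48 h Gnat2 had 7.77, 8.01 and 8.24 in IONC retinas, overlapping naïve (-0.52, SE 0.15, adjusted p = 0.0408, not called), and 7.58, 7.75 and 7.87 in IONT retinas, all below naïve (-0.79, SE 0.15, adjusted p = 0.00105, called). By 7 d IONT retinas had 8.52, 8.67 and 8.41, which was 0.81 above 12 h (SE 0.16, adjusted p = 0.00584). The corresponding IONC difference of 0.42 was not called (adjusted p = 0.197).

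Naïve arrays had Gnat2 values of 8.16 to 8.39 in the larger array set and 8.67 to 9.08 in the smaller one, and all 6 arrays of IONT 24 h, 3 d and 15 d were likewise high, at 8.86 to 9.19. With array set as a term in the fit the IONT changes of Gnat2 became -0.57 at 12 h (adjusted p = 0.0144) and -0.56 at 48 h (adjusted p = 0.0104), neither of them called.

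The γ subunit Gngt2, which anchors cone transducin to the membrane together with the β subunit, was called lower only at 12 h, with similar estimates after either lesion. It had 8.38, 8.09 and 8.22 in IONC retinas and 8.29, 8.39 and 8.01 in IONT retinas, against 9.02, 9.04, 8.89, 8.97 and 8.86 in naïve retinas. The groups did not overlap, and the change was -0.73 after IONC (SE 0.13, adjusted p = 0.000466) and -0.73 after IONT (SE 0.13, adjusted p = 0.00126). The difference between the lesions at 12 h was -0.00, with a 95% confidence interval of -0.30 to 0.30. Over 50 alternatives the 12 h change ran from -0.82 to -0.26 after IONC and from -0.80 to -0.62 after IONT. Both calls were lost with cyclic loess. The level at 7 d was 0.81 above that at 12 h after both IONC (adjusted p = 0.00321) and IONT (adjusted p = 0.00189). Without IONC 12 h replicate 2 the IONC recovery was 0.74 and not called (adjusted p = 0.0183).

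The β subunit Gnb3 was the one cone gene called higher than naïve. In the mouse retina ON bipolar cells use it as well as cones, so that its signal need not come from cones alone. At 12 h it had 11.08, 9.55 and 11.10 in IONC retinas and 10.12, 9.87 and 9.73 in IONT retinas, against 9.09, 8.96, 9.06, 9.41 and 9.53 in naïve retinas. IONC replicate 2 was close to the naïve level and the other IONC arrays were far above it. The IONC change was 1.37 (SE 0.27, 2.58-fold, adjusted p = 0.00136) with this array and 1.88 (SE 0.23, adjusted p = 7.05e-06) without it. It was no longer called without IONC 12 h replicate 1 or replicate 3.

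At 24 h Gnb3 had 10.43, 10.42 and 10.62 in IONC retinas (1.28, SE 0.27, adjusted p = 0.00851, called) and 10.74 and 10.88 in IONT retinas (1.34, SE 0.37, adjusted p = 0.0636). At 48 h it had 11.06, 10.82 and 10.53 in IONC retinas (1.60, SE 0.27, 3.02-fold, adjusted p = 0.000911) and 11.01, 11.22 and 11.27 in IONT retinas (1.96, SE 0.27, 3.89-fold, adjusted p = 4.07e-05). The lowest of the 6 arrays at 48 h was 10.53 and the highest naïve array 9.53. The 24 h IONC call held in 24 of 50 alternative analyses, while the 48 h IONT call held in all 50.

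At 3 d Gnb3 had 9.53, 9.72 and 9.34 in IONC retinas, overlapping naïve (0.32, adjusted p = 0.579), and 10.94 and 10.74 in IONT retinas, against 9.41 and 9.53 in naïve replicates 4 and 5 (1.37, SE 0.37, adjusted p = 0.0515). The difference between the lesions at 3 d, each taken against the naïve arrays of its own set, was -0.88 and was not called (95% confidence interval -1.86 to 0.11, adjusted p = 0.815). At 7 d the values were 11.06, 10.01 and 9.86 in IONC retinas and 9.87, 9.77 and 9.74 in IONT retinas, all above the highest naïve array and not called (adjusted p = 0.0323 and 0.272). At 15 d after IONT they were 10.92 and 10.12 (1.05, SE 0.37, adjusted p = 0.141). Without IONC 12 h replicate 2, Gnb3 was called at 7 d after IONC (adjusted p = 0.00137) and at 24 h and 3 d after IONT (adjusted p = 0.00328 and 0.00231). In these 3 comparisons the calls over all probe sets also rose, from 230 to 1163, from 258 to 795 and from 296 to 965.

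The other Gnb3 probe set moved alike. It changed by 1.88 at 48 h after IONC (adjusted p = 0.0024) and by 2.18 at 48 h after IONT (adjusted p = 0.000261), both called. Its change of 1.45 at 12 h after IONC had an adjusted p of 0.00694 and a B value too low for a call, and it was not called at 24 h (1.5, adjusted p = 0.0189). Bipolar cell markers gave no call in either lesion (0 of 4 measured of 5, in 20 IONC and 24 IONT combinations). Their summed level ran from 11.7 to 12.7 in IONC groups and from 12.1 to 12.8 in IONT groups, against 12.8 to 13 in naïve replicates 1 to 3 and 12.0 to 12.2 in naïve replicates 4 and 5.

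Pde6h, the inhibitory γ subunit of the cone phosphodiesterase, was not called at any time. At 12 h it had 8.98, 7.42 and 9.29 in IONC retinas and 9.05, 8.82 and 8.43 in IONT retinas, against 9.56, 9.46, 9.33, 9.70 and 9.83 in naïve retinas. All 6 injured arrays lay below the lowest naïve array. The change was -1.01 after IONC (SE 0.28, adjusted p = 0.0136) and -0.80 after IONT (SE 0.28, adjusted p = 0.15). Without IONC 12 h replicate 2, the lowest array, the IONC change shrank to -0.44 (adjusted p = 0.245), while the IONT change was called (adjusted p = 0.00823). Calls over all probe sets at 12 h after IONT then also rose, from 403 to 1094. At 48 h the IONT arrays (8.57, 8.86 and 8.90) were again below naïve (-0.80, adjusted p = 0.103). On the smaller array set Pde6h had 9.99 and 10.66 at 3 d and 10 and 10.18 at 15 d after IONT, against 9.70 and 9.83 in naïve replicates 4 and 5, and neither time was called.

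Arr3, the cone arrestin, also gave no call, and its naïve values lay apart by array set: 8.09, 8.01 and 7.69 in replicates 1 to 3 and 9.05 and 9.19 in replicates 4 and 5. The IONT values of 9.49 and 10.27 at 24 h, 8.44 and 9.58 at 3 d and 9.59 and 9.62 at 15 d were on arrays of the same set as naïve replicates 4 and 5, and none of these groups was called. After IONC, Arr3 was below the naïve mean at all 5 times, with the lowest values at 3 d (6.48, 7.29 and 7.03; -1.48, SE 0.36, adjusted p = 0.0317). With array set as a term this became -1.0 (adjusted p = 0.284).

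Cnga3, the channel α subunit, could not be followed with its probe set. It lay between 2.06 and 2.19 on 34 arrays, below which only 11.9% of probe sets had a lower mean, and reached 4.6 on IONC 12 h replicate 2 alone. Its IONC value at 12 h, 0.84 (adjusted p = 0.0398), became 0.01 without that array (adjusted p = 0.861). By contrast the mean signals of the other 7 genes were above those of 72.1% (Opn1sw) to 94.8% (Gnb3) of probe sets.

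Of the 8 genes, only the 2 opsins differed between the lesions beyond the limit: Opn1mw at 12 h and Opn1sw at 48 h. This was 1 of 8 genes at 12 h and 1 of 8 at 48 h, against 0.934% and 0.103% of all probe sets. None was called at 7 d (0.0290% of all probe sets), and none at 24 h (0.235%) or 3 d (0.126%), where the lesions lay on different array sets. At 7 d Opn1sw was lower in every IONC array than in every IONT array, a difference of -1.13 with a 95% confidence interval of -1.88 to -0.38 (adjusted p = 0.74). Of all 31042 probe sets, 9 were called at this time.

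**Figure D3:**
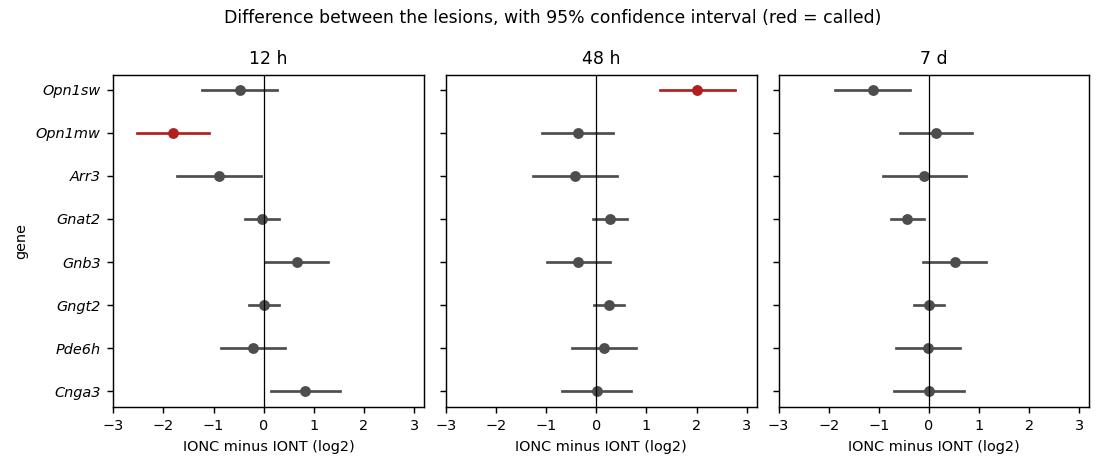
IONC minus IONT difference (log2) of each cone gene at 12 h, 48 h and 7 d, as points with 95% confidence intervals; called differences are red. Opn1mw at 12 h (-1.81) and Opn1sw at 48 h (2.01) are called, and the intervals of Gngt2 stay within 0.55 of 0 at all 3 times.

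The lower levels called at 12 h had risen by 7 d, except that of Gnat2 after IONC, where the rise of 0.42 was not called (limma adjusted p = 0.197). Gnb3, called higher at 12 h after IONC, was not called different at 7 d from 12 h (-0.27, limma adjusted p = 0.583). Between 12 h and 7 d, 2 of 8 genes rose after IONC (Opn1sw and Gngt2) and 3 of 8 after IONT (Opn1sw, Gnat2 and Gngt2), against 0.422% and 1.00% of all probe sets called. Between 24 h and 15 d after IONT no cone gene was called, against 1.89% of all probe sets, and the difference of Opn1sw was 0.62 (SE 0.40, adjusted p = 0.604).

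Each cone gene was then set against the rod gene of the same role on the same array, which removes differences in overall signal. The cone minus rod difference was compared between injured and naïve arrays by exact two-sided permutation tests, over the 15 IONC arrays and the 9 IONT arrays of 12 h, 48 h and 7 d, with adjustment over 12 tests. Pde6h dropped relative to Pde6g, the rod inhibitory subunit, by 0.64 after IONC (exact permutation p = 0.00142, adjusted p = 0.00341) and by 0.73 after IONT (exact permutation p = 0.000999, the smallest possible, adjusted p = 0.003). After IONT, the within-array differences of -5.60 to -5.07 did not overlap the naïve differences of -4.78 to -4.18. With naïve replicates 1 to 3 only, the Pde6h differences became -0.46 after IONC and -0.55 after IONT (exact permutation test, adjusted p = 0.0409 and 0.0182). Arr3 dropped relative to Sag, the rod arrestin, by 1.21 after IONC (exact permutation p = 0.000258, adjusted p = 0.00155) and by 0.88 after IONT (exact permutation p = 0.015, adjusted p = 0.03). With naïve replicates 1 to 3 only, these became -0.72 after IONC (adjusted p = 0.0182) and -0.40 after IONT (adjusted p = 0.182). The Arr3 difference after IONT also missed 0.05 without naïve replicate 1, 4 or 5.

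For the transducin α subunits the pair did not pass: Gnat2 and Gnat1 differed from naïve by -0.54 and -0.45 over the IONC arrays (difference -0.09, exact permutation p = 0.64) and by -0.53 and -0.72 over the IONT arrays (difference 0.19, exact permutation p = 0.378). With naïve replicates 1 to 3 only, which are of the same array set as the injured arrays tested, the IONT difference was 0.46 and passed (exact permutation test, adjusted p = 0.0409), and the IONC difference was 0.18 and did not (adjusted p = 0.519). The rod gene Gnat1 was called lower at 12 h (-1.27) and 24 h (-0.60) after IONC and at 12 h (-0.89) and 48 h (-1.38) after IONT. Its IONC minus IONT difference at 48 h was called at 1.07 (limma adjusted p = 5.56e-06), in the same direction as that of Opn1sw. Of the 8 measured rod counterparts, Gnat1 was the only 1 called in this comparison, and their median difference was 0.07. Gngt2 against Gngt1 did not pass in either lesion (adjusted p = 0.827 after IONC and 0.354 after IONT). Gnb3 against Gnb1 differed by 0.46 after IONC and 0.56 after IONT and did not pass (adjusted p = 0.453 for each). With naïve replicates 1 to 3 only, it differed by 1.42 and 1.52 and passed (adjusted p = 0.0147 and 0.0182). The Gnb1 signal was 14.92 to 14.96 on those naïve arrays and 12.92 to 13.04 on naïve replicates 4 and 5. With the mean over the probe sets of each gene the difference was 2.46 after IONC and 2.22 after IONT and passed (exact permutation test, adjusted p = 0.000774 and 0.002). Cnga3 minus Cnga1 passed in both lesions (0.68 after IONC and 0.36 after IONT). Cnga3 was at its floor on all arrays but IONC 12 h replicate 2, without which the IONC difference was 0.47. Cnga1, the rod channel subunit, changed by -0.48 over the IONC arrays and by -0.33 over the IONT arrays.

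**Figure D4:**
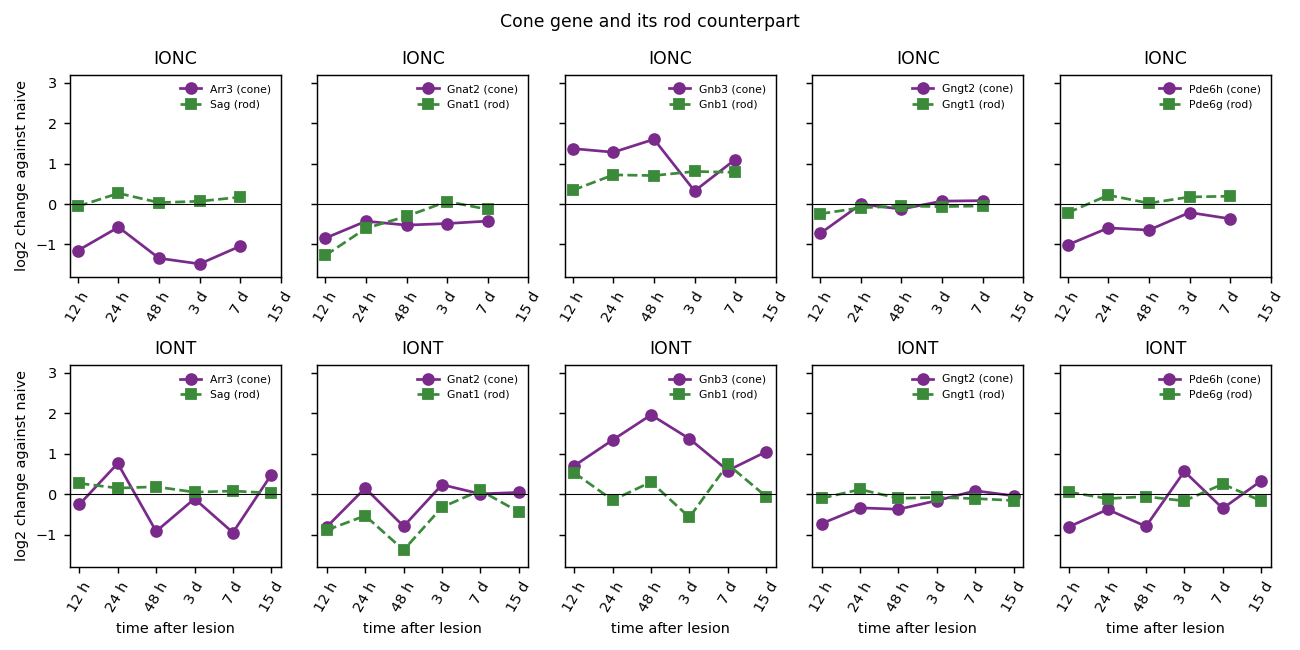
Log2 change against naïve of each cone gene (circles) and its rod counterpart (squares) by time, after IONC (top) and IONT (bottom). Gnat2 and Gnat1 are both below 0 at 12 h and 48 h in each lesion and lie on opposite sides of 0 at IONT 24 h, 3 d and 15 d and at IONC 3 d. Arr3 and Pde6h run below Sag and Pde6g after IONC, and Gnb3 runs above 0 throughout.

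Of 13 other listed genes of the photoreceptor light response, 11 were measured. After IONC 5 of them were called, in 8 of 55 gene and time combinations, all lower, and after IONT 4 were called, in 6 of 66 combinations, 5 of them lower. At 12 h this was 5 of 11 genes after IONC and 2 of 11 after IONT, where 5.65% and 1.30% of all probe sets were called in either direction. Those calls leaned lower after IONC (1357 lower, 396 higher) and not after IONT (188 lower, 215 higher). Grk1, the kinase that phosphorylates opsins, had the largest change (-2.22 at 12 h after IONC, adjusted p = 5.79e-07, and -2.04 at 48 h after IONT, adjusted p = 3.17e-06). Rgs9 and Gnb5, partners in switching transducin off, were lower at 12 h after IONC (-1.31 and -1.01), as were the calcium sensors Rcvrn (-0.56) and Guca1a (-0.41). Rcvrn also had a called IONC minus IONT difference at 48 h, of 0.88. Kcnv2, a potassium channel subunit of photoreceptors, was higher at 7 d after IONT (1.08, adjusted p = 0.000976). Of 9 listed transcription factors of photoreceptors, 6 were measured, and 1 of 30 combinations after IONC and 1 of 36 after IONT were called, which is near the share of all probe sets called (0.535% to 5.65% by time). Otx2, a regulator of photoreceptor fate, was lower at 12 h after IONC (-0.78, adjusted p = 0.000798), and Rorb, a nuclear receptor that acts on Opn1sw in the mouse, was higher at 7 d after IONT (2.74, adjusted p = 0.000154). Crx, whose core letters stand upstream of Opn1sw, was not called against naïve at any time and was 1.17 higher at 15 d than at 24 h after IONT (adjusted p = 0.00146). Gucy2e and Gucy2f of the first list and Rxrg of the second had naïve means of 2.23, 3.28 and 2.48, close to the array floor, with little room for a decrease. All IONC 12 h values of these 2 lists include replicate 2, the array that stood apart, and are not given without it.

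Markers of other cells were read beside the 12 h values. The summed rod marker level (5 of 7 measured) was 16.2 to 16.7 in IONC and 16.7 to 16.8 in IONT retinas at 12 h, against 16.9 to 17.0 in naïve retinas. Pigment epithelium markers (4 of 5 measured) summed to 9.43 to 11.1 in IONC and 11.3 to 12.3 in IONT retinas at 12 h, against 10.3 to 12.1 in naïve retinas, and of them Rpe65 was called lower at 12 h after IONC (-2.48, adjusted p = 0.00142). Lens markers (4 of 4 measured) were present on every array, at 14.6 to 14.8 in IONC and 15.1 to 15.3 in IONT retinas at 12 h, against 14.9 to 15.8 in naïve retinas. Müller glia markers (5 of 5 measured, 2 called lower and 1 higher at 12 h in each lesion) summed to 12.9 to 14.1 in IONC and 13.4 to 13.7 in IONT retinas, against 13.9 to 14.1 in naïve retinas. Amacrine (4 of 4 measured), horizontal (3 of 3) and endothelial (3 of 3) markers gave no call, and at 12 h after IONT each sum was below the naïve range: 12.1 to 12.3 against 12.5 to 12.6 for amacrine cells, 9.38 to 9.42 against 9.5 to 9.75 for horizontal cells, and 11.7 to 12 against 12.3 to 12.4 for endothelium. The same sums at 12 h after IONC were 11.8 to 12.7, 7.88 to 9.24 and 11.3 to 12.6. Some markers counted as measured had naïve means close to the array floor, with little room for a decrease. These were Lhx1 (horizontal, 2.97), Pecam1 (endothelium, 2.8), Lrat (pigment epithelium, 3.14) and Cd68 and Itgam (microglia, 1.75 and 2.43). Microglia markers (5 of 5 measured) summed to 6.81 to 9.85 in IONC and 7.44 to 8.22 in IONT retinas at 12 h, against 6.91 to 7.1 in naïve retinas. All marker values at 12 h after IONC, with the Rpe65 call, include replicate 2, the array that stood apart, and are not given without it. The part of these cells and tissues in the cone gene values was not tested.

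The genes whose group means ran most like those of each called cone gene were named from 9880 candidates by Pearson correlation over the 9 groups of the larger array set, as a description. For Opn1sw they were Ndrg3 (r = 0.978), Aipl1 (0.977), a chaperone of phosphodiesterase 6, and Abca4 (0.977), the retinoid transporter of photoreceptor outer segments. For Gnat2 they were Pgam1 (0.95), Got1 (0.941) and again Ndrg3 (0.929), and for Gngt2 Cdh11 (0.968), Bbs9 (0.968) and Hdac1 (0.967). For Gnb3 they were Gnb2 (0.969), another G protein β subunit, H2aj (0.968) and Ctsd (0.964), and for Opn1mw Dnaaf5 (0.954), Commd2 (0.942) and Paip2 (0.937).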

How the data were processed

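RNA of pooled left retinas was hybridised by the authors to Affymetrix RAE230.2 arrays. The deposited values are log2 signals, which the authors made from the scanned arrays with GCRMA (background correction by probe sequence, quantile normalisation and summary per probe set), and versions were not given in the sources used here. Genes were named through the platform annotation supplied with the series: of 31099 rows, 57 controls were left out. limma 3.58.1 (R 4.3.3) was fitted to all 35 arrays, as group means, and p-values were adjusted by Benjamini-Hochberg over all 31042 probe sets of a comparison. At 24 h and 3 d, IONC minus IONT was the difference of each lesion's change against naïve arrays of its own set. Cone and rod pairs were tested with scipy 1.17.1. Named genes were all 9 cone genes, their rod counterparts, called members of 2 photoreceptor lists, and the 3 most alike genes of each called cone gene. The genes, lists and thresholds were chosen with earlier results of these data known. The scripts were tested on simulated data. Alternatives covered thresholds, normalisation, naïve arrays, array set, array weights, probe sets and each array left out. Arrays carry no read depth: the number of pools limits the precision. Replicate numbers did not pair the samples, as given below.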

Additional observations from a re-analysis of the deposited data

Results flagged for a closer look

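Opn1sw at 48 h stood out because its change differed between the lesions by a test of the difference itself: IONC minus IONT was 2.01 on the log2 scale (adjusted p = 0.00965, limma), with all 3 IONC arrays above all 3 IONT arrays. The rod gene Gnat1 differed the same way at this time (1.07), the only 1 of 8 measured rod counterparts called.

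Opn1mw at 12 h stood out for the same reason with the opposite sign: IONC minus IONT was -1.81 (adjusted p = 0.0042, limma), with all 3 IONC arrays below and all 3 IONT arrays above the naïve range. The lowest array was IONC replicate 2, which stood apart over the whole array, and without it the difference was -1.44 (adjusted p = 0.0409).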

How the results depend on the processing

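Over 50 alternatives no called change of a cone gene turned its sign. Of 19 called values, 4 were called in every alternative: Opn1sw at 12 h and 48 h after IONT, its difference between 7 d and 12 h after IONT, and Gnb3 at 48 h after IONT. The count of called values after IONC was 6, and became 14 at an adjusted p under 0.05 with no B limit and 2 with each pair of groups fitted alone. After IONT it was 6, and became 12 with array weights, 10 with the other choice of naïve arrays and 3 with each pair alone. IONC minus IONT had 2, and had 4 with array weights, 7 with the other choice of naïve arrays, 1 with arrays centred on their medians and 0 with each pair alone. The 7 included the plain difference at 24 h and 3 d, which sets lesions on different array sets against each other. Late minus early had 5, and had 2 with cyclic loess and 1 with each pair alone. With array set as a term and IONC 12 h replicate 2 left out, an alternative chosen after seeing the data, the counts were 10 for IONT and 1 for IONC minus IONT.

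Leaving out each array in turn gave 5 to 7 calls after IONC, 5 to 12 after IONT, 0 to 2 between the lesions and 3 to 6 for late minus early. The 12 after IONT came without IONC 12 h replicate 2, and the 0 without any one IONT 12 h array. Leaving out IONC 12 h replicate 2 also raised the calls over all 31042 probe sets at every IONT time. They went from 403 to 1094 at 12 h and from 812 to 1876 at 48 h, so that the rise was not particular to the cone genes. The 3 for late minus early came without IONT 12 h replicate 3 or IONT 7 d replicate 2. The cone and rod pairs that passed numbered 3 in each lesion. Of these, Cnga3 minus Cnga1 mostly follows Cnga1, since Cnga3 was at its floor on all arrays but IONC 12 h replicate 2. The pairs that passed numbered 4 in each lesion with naïve replicates 1 to 3 only or with the mean of probe sets, and 2 to 3 when each naïve array was left out in turn.

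Replicate numbers name pools only. Of 84 pairs of same-numbered arrays from different groups, 23 had deviations that correlated above 0.1 (median 0.05, range -0.21 to 0.35). With a replicate block the correlation within a number was -0.01 and IONC minus IONT had 1 call in place of 2, since Opn1sw at 48 h went to an adjusted p of 0.0112. It changed no other call. With 2 or 3 pools a group, only large changes against the common spread could be called, and levels of genes near the array floor such as Cnga3 had no order.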
